A study of Mus musculus with 36 samples.

Results

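CHD4, the ATP-dependent motor of NuRD (the nucleosome remodeling and deacetylase complex), was mapped by ChIP-seq in mouse neural progenitor cells (NPCs), and the sites described here are the distal CHD4 peaks of NPCs that had no MBD3 peak and no counterpart in embryonic stem cells (ESCs). The sites were chosen by the presence and absence of called peaks: a site was a peak of the NPC CHD4 list whose midpoint lay more than 1 kb from every protein-coding transcription start site (TSS) and which overlapped, by 1 bp, no peak of NPC MBD3, of ESC CHD4 or of ESC MBD3. Of 20234 NPC CHD4 peaks, 18259 had no NPC MBD3 peak, 15425 of these also had no ESC CHD4 peak, 15369 also had no ESC MBD3 peak, and 13867 also were distal. These 13867 sites were 68.5% of the NPC CHD4 list. The whole series gave 104813 peaks in 9 lists. In all, 13859 sites lay on chromosomes 1 to 19 and X and had reference sequence, and 8 lay on other contigs and entered no sequence count.

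NuRD joins nucleosome remodeling by CHD4 with histone deacetylation by HDAC1 and HDAC2, and MBD3 or MBD2 is the subunit that holds the remodeling and deacetylase modules together. CHD4 is also found in assemblies that lack MBD3. AP-1 is a dimer of FOS and JUN family proteins that binds the string TGACTCA and its reverse complement TGAGTCA, and it is a common end point of growth factor and adhesion signalling at distal enhancers. NPCs of this kind are grown as an adherent culture in the growth factors bFGF and EGF.

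The study compared wild-type R1 ESCs, grown in Serum/LIF +2i, with NPCs derived from the same R1 ESCs and kept in NPC medium. CHD4 was precipitated with an antibody from Abcam and MBD3 with one from Bethyl, in 2 replicates each for ESCs and in 1 sample each for NPCs. The other 3 lists used were of SIN3A in wild-type ESCs, prepared without and with spike-in, and of ZFP296 in an ESC line carrying a ZFP296 BAC, precipitated through its GFP tag (per the labels, whereas the methods describe a tagged construct in KH2 ESCs), and 27 of the 36 samples were not analysed here. Both cell types come from 1 parental line, and peak lists hold no expression values against which the NPC label could be checked. The NPC lists have no replicate, so all intervals and p-values below count sites and cover counting error only. Peaks of 1 list are not replicates of a cell type. The NPC MBD3 list held 2304 peaks, against 20234 of NPC CHD4. A missing MBD3 peak therefore does not show that MBD3 was absent. Below, with or without MBD3 means with or without a called MBD3 peak.

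The authors gave each peak a value on a −log10 scale, which depends on the list it comes from. This value is a score and not a measure of enrichment. In 1 alternative a minimum of 10 was set for the NPC and ESC CHD4 peaks that form the classes. The lists searched for overlaps had no minimum. Across the sites the value ran from 3.06 to 86.1 with a median of 8.76 and quartiles of 6.79 and 11.7, and the median width was 200 bp. Of the sites, 9 in 10 had a value of at most 15.6. The 1492 distal NPC-only CHD4 peaks that did carry MBD3 (below, the sites with MBD3) had a median value of 13.5 and a median width of 325 bp. The 1688 distal NPC CHD4 peaks without NPC MBD3 that had an ESC CHD4 peak in either replicate (the kept sites) had a median value of 9.66. The 1502 NPC-only CHD4 peaks without MBD3 that lay at promoters had a median value of 7.60, and the 3584 distal ESC-only CHD4 peaks without MBD3, taken from ESC replicate 1, one of 8.498 on the scale of their own list. Of the ESC-only class 3574 had reference sequence, and with only ESC replicate 2 or only replicate 1 in use the class held 17722 or 7551 such peaks. The kept sites fell to 719 without ESC replicate 2 of CHD4 and MBD3, and the peak names of that CHD4 list refer to Zfp219 BAC cells. The classes were set by the presence of peaks, and these values are a description with no test. At the distance limit, the 5 nearest sites inside it lay 1001 to 1014 bp from a TSS with values from 6.88 to 11.1, and the 5 nearest NPC-only CHD4 peaks outside it lay 997 to 999 bp from one with values from 6.16 to 35.3.

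The AP-1 string, present in part of the sites, is shown first in 4 of them, the highest by the authors' value among those with TGACTCA within 20 bp of the midpoint and with no highly repeated word in the central 200 bp. These 4 were chosen after the values were seen. Each line gives the central 100 bp on the plus strand of mm9 (NCBIM37), with the AP-1 string, in either orientation, in capitals. The first lay 9471 bp from the nearest TSS, that of Pxn, which encodes the focal adhesion protein paxillin (value 48.4), and the second 18526 bp from that of Scd2, a fatty acid desaturase (value 40.1). The third lay in an intron of Trpm6, a magnesium channel (value 28.5), and the fourth 4712 bp from the TSS of Gprc5a, an orphan G protein-coupled receptor (value 27.8).
near Pxn, chr5:115947164-115947263: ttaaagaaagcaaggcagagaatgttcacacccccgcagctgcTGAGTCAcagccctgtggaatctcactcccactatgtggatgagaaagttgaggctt
near Scd2, chr19:44386642-44386741: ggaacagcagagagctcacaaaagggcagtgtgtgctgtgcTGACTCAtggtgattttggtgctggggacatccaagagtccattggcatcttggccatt
Trpm6 intron, chr19:18841018-18841117: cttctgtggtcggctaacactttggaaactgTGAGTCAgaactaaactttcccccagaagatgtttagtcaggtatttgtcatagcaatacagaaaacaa
near Gprc5a, chr6:135010907-135011006: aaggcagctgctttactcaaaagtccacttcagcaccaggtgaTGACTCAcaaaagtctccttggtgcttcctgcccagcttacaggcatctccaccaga

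The sites with the highest values of the whole set are shown next, without those conditions on position and repeats. The 6 windows below are the central 200 bp of the 4 highest sites with the string and of the 2 highest without it, again with the string in capitals. In the 4 with the string it started at base 175, 122, 192 and 129 of the 200, so it lay off the centre in each. Most of these windows also held stretches that occur many times in the genome: of their 14-letter words, 12, 61, 0 and 42 occurred at least 1000 times in mm9 in the 4 windows with the string, and 24 and 12 in the 2 without it. The site in an intron of Plcb1, a phospholipase C, had a value of 78.3. That near Ube2h, an E2 ubiquitin-conjugating enzyme, had 66.0, that in an intron of Spire2, an actin nucleator, had 62.4, and that in an intron of Vangl1, a planar cell polarity protein, had 59.2. The Spire2 site lay 768 bp from the nearest ESC CHD4 peak, so it leaves the set when peaks within 1 kb count as overlaps. The sites without the string lay 58371 bp from the TSS of Erbb2ip, an ERBB2-binding scaffold (value 86.1, the highest of all sites), and 1224566 bp from that of Cited2, a CBP/p300-binding regulator (value 76.9).
Plcb1 intron, chr2:135279347-135279546: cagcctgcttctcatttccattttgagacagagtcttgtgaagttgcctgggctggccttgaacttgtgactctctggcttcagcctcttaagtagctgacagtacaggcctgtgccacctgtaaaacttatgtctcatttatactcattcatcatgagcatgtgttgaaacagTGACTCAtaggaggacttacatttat
near Ube2h, chr6:30293947-30294146: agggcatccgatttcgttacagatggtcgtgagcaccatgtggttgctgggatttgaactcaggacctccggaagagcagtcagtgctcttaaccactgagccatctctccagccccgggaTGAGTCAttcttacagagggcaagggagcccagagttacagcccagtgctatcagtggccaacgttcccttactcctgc
Spire2 intron, chr8:125869757-125869956: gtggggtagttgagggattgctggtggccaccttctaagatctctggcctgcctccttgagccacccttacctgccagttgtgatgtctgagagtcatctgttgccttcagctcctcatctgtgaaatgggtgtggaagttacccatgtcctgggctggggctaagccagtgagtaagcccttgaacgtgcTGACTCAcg
Vangl1 intron, chr3:101986570-101986769: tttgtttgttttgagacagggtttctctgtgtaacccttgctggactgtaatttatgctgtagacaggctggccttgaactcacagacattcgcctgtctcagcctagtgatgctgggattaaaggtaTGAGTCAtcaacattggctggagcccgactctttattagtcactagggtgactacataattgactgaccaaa
near Erbb2ip, chr13:104768865-104769064: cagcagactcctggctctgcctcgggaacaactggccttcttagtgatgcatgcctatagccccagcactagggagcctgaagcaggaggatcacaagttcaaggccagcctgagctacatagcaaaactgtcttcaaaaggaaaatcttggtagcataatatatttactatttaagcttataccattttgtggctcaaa
near Cited2, chr10:16218368-16218567: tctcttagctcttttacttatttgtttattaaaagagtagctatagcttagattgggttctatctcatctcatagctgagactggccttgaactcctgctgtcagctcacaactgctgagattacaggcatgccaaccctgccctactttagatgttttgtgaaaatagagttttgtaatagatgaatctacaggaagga

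The other 4 of the 10 highest sites lay near Rgs3, a regulator of G protein signalling (value 70.2), near Sec63, a protein of the endoplasmic reticulum translocon (60.2), in an intron of Kcnab1, a potassium channel subunit (57.5), and near Dusp7, a phosphatase of ERK (53.0). The string was in the central 200 bp of 5 of the 10. Words of at least 1000 genomic copies numbered 5 near Rgs3, 49 near Sec63, 52 in Kcnab1 and 0 near Dusp7. Only the Spire2 and Dusp7 windows among the 10 held none.

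The first question was how common the AP-1 string is. TGACTCA, read on both strands, was found in the central 200 bp of 6963 of 13859 sites, a share of 50.2% (95% exact interval 49.4% to 51.1%). The windows 10 kb downstream of the same sites held it at 3.60% and those 10 kb upstream at 3.59%, and of all 200-bp windows of the genome 3.11% held it. The share at the sites was therefore 13.9 times that downstream, for windows from the same neighbourhoods. A control string with the same letters in another order, TCACTGA, was found at 6.17% of the sites and at 4.27% downstream.

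The strings lay close to the middle of the peaks. Of 12191 strings within 500 bp of a midpoint, 44.9% lay within 50 bp of it and 20.9% within 20 bp, and the median distance was 59 bp. At the sites with MBD3 41.5% of strings lay within 50 bp, and at the ESC-only sites 12.1%, with a median distance of 219.5 bp. The profile of strings about the midpoint shows a single central rise in both NPC classes and no such rise in the ESC class. Most sites with the string had 1 copy in the central window (5878 sites), 1029 had 2, 49 had 3 and 7 had 4 or more.

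**Figure D1:**
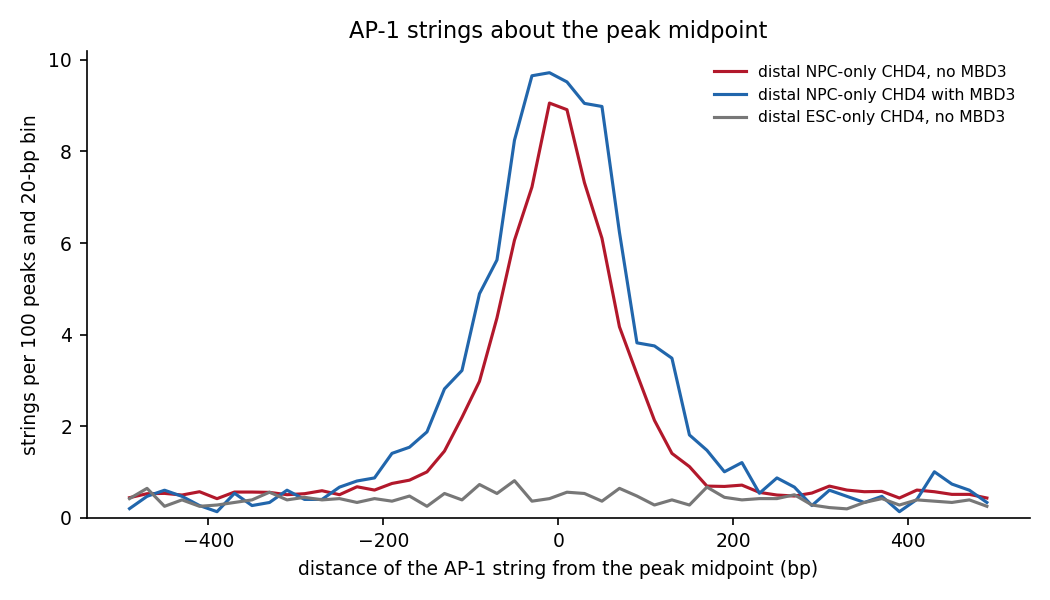
AP-1 strings (TGACTCA on either strand) per 100 peaks in bins of 20 bp (y axis) against distance from the peak midpoint in bp (x axis), for distal NPC-only CHD4 peaks without MBD3 (red), those with MBD3 (blue) and distal ESC-only CHD4 peaks without MBD3 (grey). Both NPC classes rise at the centre, where 44.9% and 41.5% of the strings lay within 50 bp, and the ESC class is flat.

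The bases beside the string were uneven too. With each string read in the TGACTCA direction, T stood before it in 6.30% of 8077 strings at the sites and in 17.5% of 502 strings downstream. A stood after it in 8.65% at the sites and in 20.3% downstream. The rarest letters were thus T before the string and A after it, each the complement of the other. The string itself is almost its own reverse complement.

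Sites without TGACTCA held some of the strings 1 letter away from it more often than the downstream windows did. In the 6896 such sites, TGAATCA was found at 16.3% against 2.67% of downstream windows, TGACTAA at 15.2% against 2.52%, TTACTCA at 9.86% against 2.33%, and TGACTCG at 2.18% against 0.442%. These 4 had the highest ratios to the downstream windows among the 19 distinct single-letter variants, and they were picked for that, so their shares are a description. At least 1 of the 4 was present at 38.1% of the sites without TGACTCA, against 7.71% downstream. Over all 19 variants the shares were 71.5% and 44.8%. Counting TGACTCA or 1 of the 4, the share reached 69.2% of all sites, against 11.04% of all downstream windows.

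In a search of all 7-letter words present in at least 1% of the sites without TGACTCA, the 10 words with the highest ratio to the downstream windows were led by TGAATCA, whose ratio was 6.11. The variant TGACTAA followed with a ratio of 6.01, and that of TGACTCG was 4.88. The next were ATTAGTC (4.85), ATGAATC (4.65), ATGACTA (4.49), ATGATTC (4.32), TGAGTAA (4.23), CGACTCA (3.95) and AGGGCGC (3.84), and the 2 orientations of a word were counted as 1. In 9 of these 10 the word is a variant of the AP-1 string or a shifted part of one. AGGGCGC, at 1.68% against 0.434%, is the exception, and it is part of many binding sites of CTCF, an insulator protein.

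The string became more common with the authors' value, up to a value of 20. With the sites in 5 steps of the authors' value, it was at 42.1% in the lowest step (3.06 to 6.20, interval 40.2% to 44.0%) and at 58.9% in the highest (12.7 to 86.1, interval 57.1% to 60.7%). In finer steps the share reached 61.0% of the 1124 sites between 15 and 20, then was 55.6% of the 419 sites between 20 and 30 and 48.9% of the 88 sites at 30 or more. The interval of the last step, 38.1% to 59.8%, takes in the share of the step before it but not the 61.0%. By place, the string was at 51.1% of intronic, 49.8% of intergenic and 45.2% of exonic sites. By distance it was at 44.8% of sites within 5 kb of a TSS and at 53.3% of those beyond 100 kb. Over the 20 chromosomes with sites the share ranged from 46.9% on chromosome 19 to 56.7% on X, with a median of 50.5%.

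Set against other CHD4 peaks, the string was common at distal CHD4 peaks called in NPCs only. It was at 14.7% of the promoter sites, an odds ratio of 5.85 for the distal sites against them (5.05 to 6.81) and a p of 7.61e-168 by a two-sided Fisher's exact test. At the kept sites it was at 18.7%, an odds ratio of 4.38 (3.85 to 4.98, adjusted exact p = 8.21e-142, Benjamini-Hochberg over 18 tests). The ESC-only sites held it at 4.92%, an odds ratio of 19.5 (16.7 to 22.9), with p at 1e-300, the smallest value written here. Each of these 3 differences kept its direction and its call under every alternative tried for it. The control TCACTGA was at 6.17% of the sites, 2.86% of the promoter sites and 2.99% of the ESC-only sites. Another rearranged string, GTACTAC, was at 0.772%, 0.200% and 0.672%. Neither control was tested against the promoter or ESC-only sites.

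Against the sites with MBD3 the direction was the other way and the difference small. The string was at 59.4% of the sites with MBD3 and at 50.2% of those without it, an odds ratio of 0.691 (0.618 to 0.771, adjusted exact p = 1.17e-10, over 19 tests). The authors' value moved with this difference. Between values of 15 and 20 the shares were 61.0% without and 59.4% with MBD3 (odds ratio 1.07, 0.827 to 1.38, adjusted exact p = 0.773), and from 20 upwards 54.4% and 66.7% (odds ratio 0.598, adjusted exact p = 0.00775). Between 10 and 15 the odds ratio was 0.774 (adjusted exact p = 0.0330), and in the 3 steps below 10 it was 0.901, 0.858 and 0.852, with adjusted exact p-values of 1, 0.635 and 0.599. With every listed peak within 1 kb counted as an overlap, the odds ratio was 0.904 (adjusted exact p = 0.122).

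**Figure D2:**
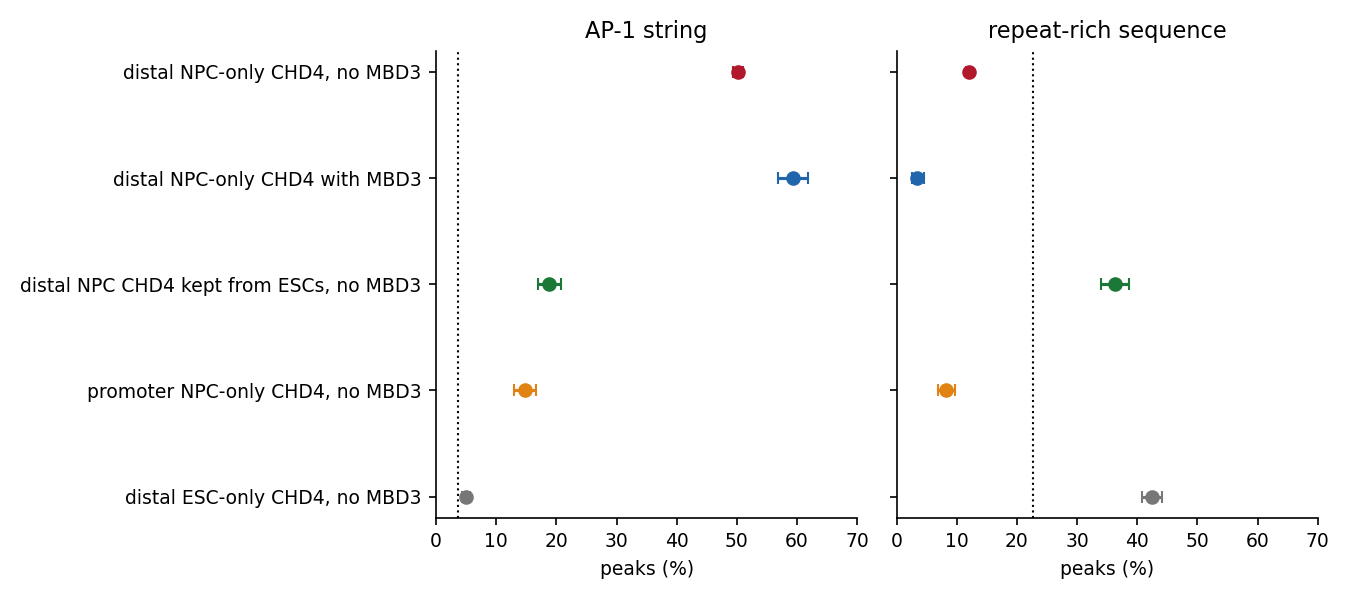
Share of peaks (%, x axis) with the AP-1 string (left) and with repeat-rich sequence (right) in the central 200 bp, for the 5 classes of CHD4 peaks on the y axis. Points are shares, bars are 95% exact intervals, and the dotted line is the share in windows 10 kb downstream of the distal NPC-only peaks without MBD3 (3.60% and 22.6%).

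A second feature separated sites with and without MBD3 more clearly. A window was called repeat-rich when at least 20 of its 14-letter words occurred 1000 or more times in the genome, a definition chosen after the data were seen because the reference carried no repeat marks. Repeat-rich windows were 12.0% of the sites (1660 of 13859, interval 11.4% to 12.5%) and 3.42% of the sites with MBD3 (51 of 1492, 2.56% to 4.47%), an odds ratio of 3.84 (2.89 to 5.21, two-sided Fisher's exact test, adjusted exact p = 2.32e-28). The windows 10 kb downstream were repeat-rich at 22.6%, so the sites held less of this sequence than the windows beside them. The kept sites were repeat-rich at 36.3% and the ESC-only sites at 42.4%, and the promoter sites at 8.12%.

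Repeat-rich sequence was most frequent at the sites with the highest values. From the lowest step of the authors' value to the step below 20 it made up 9.27% to 12.8% of the sites. It made up 18.4% between 20 and 30 (interval 14.8% to 22.4%) and 39.8% of the 88 sites at 30 or more (29.5% to 50.8%). At the sites with MBD3 the same top step held 5 of 49, or 10.2%. The AP-1 string was at 41.5% of the repeat-rich sites and at 51.4% of the others, and among the others it was at 62.2% between 15 and 20, 56.4% between 20 and 30 and 56.6% at 30 or more. The authors used uniquely mapped reads, and the part of mapping in these values was not tested.

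**Figure D3:**
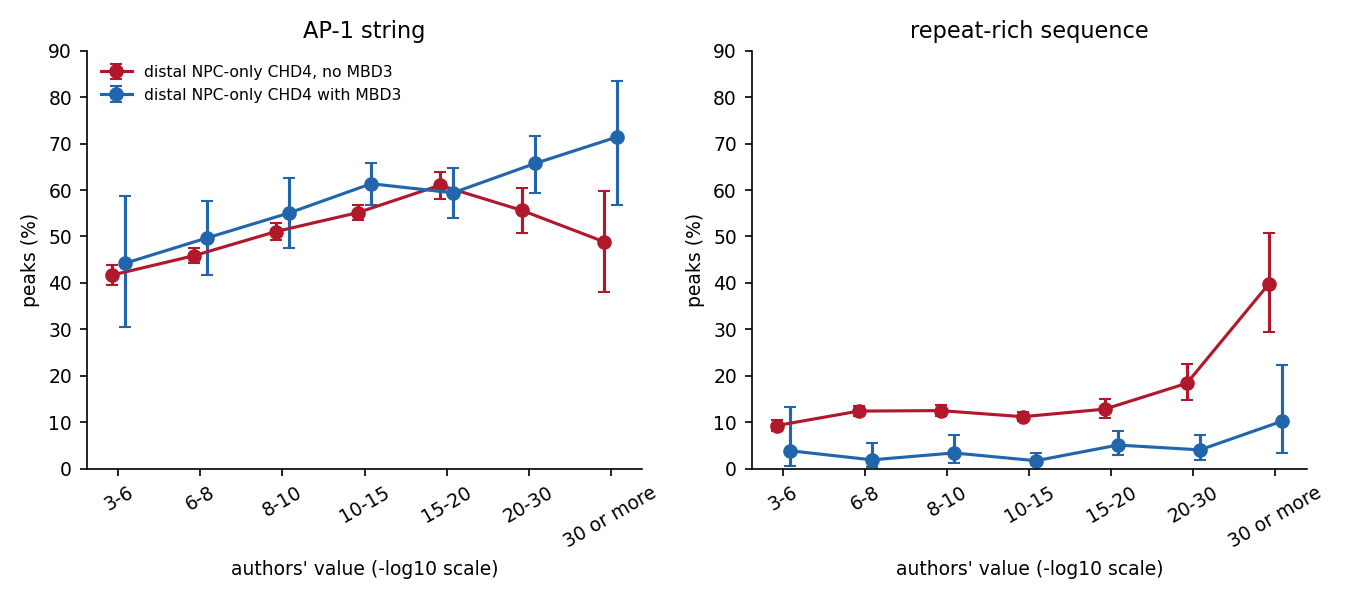
Share of peaks (%, y axis) with the AP-1 string (left) and with repeat-rich sequence (right) in steps of the authors' value on a −log10 scale (x axis), for distal NPC-only CHD4 peaks without MBD3 (red) and with MBD3 (blue), with 95% exact intervals as bars. Among peaks without MBD3 the AP-1 share is highest between 15 and 20 (61.0%) and repeat-rich sequence is highest at 30 or more (39.8%).

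Of the other strings searched, the CTCF core had the highest ratio to the downstream windows, at 0.888% of the sites against 0.144%, and NFY (CCAATCA) was at 1.69% against 2.22%. The E-box CAGCTG, bound by dimers of basic helix-loop-helix proteins, was at 17.4% of the sites and 8.96% downstream, and the E-box CAGATG at 26.1% and 15.6%. TEAD (ACATTCC), the DNA-binding partner of YAP and TAZ, was at 5.90% against 2.82%, and RUNX (AACCACA) at 10.7% against 4.87%. The ETS string CAGGAAGT, bound by effectors of ERK signalling, was at 3.88% against 1.65%. SOX (CCATTGT) was at 4.34% against 3.05%, near the ratio of the TCACTGA control. CRE (TGACGTCA), a string of CREB and ATF dimers, was at 0.382% against 0.123%. The octamer ATGCAAAT of POU5F1 and other POU factors was at 0.916% against 1.35%, and the full NFI site (TTGGC, 5 bases, GCCAA) was in 2 sites. The second control string, GTACTAC, had a ratio like that of the octamer, at 0.772% against 1.15%.

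Sites with and without MBD3 differed in 5 of these strings. Without MBD3, CAGCTG was less frequent (17.4% against 24.8%, odds ratio 0.638, 0.562 to 0.726, adjusted exact p = 8.98e-11), as were CAGATG (odds ratio 0.833, adjusted exact p = 0.00784) and GGGCGGG, the string of SP and KLF factors (2.54% against 3.82%, odds ratio 0.656, adjusted exact p = 0.0139). The CTCF core was more frequent (0.888% against 0.201%, odds ratio 4.44, 1.48 to 21.9, adjusted exact p = 0.00784), though that rests on 3 of 1492 sites with MBD3. RUNX was more frequent as well (10.7% against 8.65%, odds ratio 1.26, adjusted exact p = 0.0342). Without repeat-rich windows the RUNX odds ratio was 1.08 (adjusted exact p = 0.591) and that of SP and KLF factors 0.719 (adjusted exact p = 0.0913). The CTCF call was lost in windows of 500 bp (odds ratio 1.88, adjusted exact p = 0.101), and of the 5 strings only CAGCTG kept its call under every alternative tried. TEAD, SOX and both control strings did not pass the test, with TEAD at 5.90% and 6.84% (odds ratio 0.854, 0.689 to 1.07) and SOX at 4.34% and 4.89% (0.881, 0.686 to 1.15).

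Fewer of the sites than of those with MBD3 held a CpG dinucleotide. At least 1 CG was present in 82.7% of the sites and in 88.9% of those with MBD3 (odds ratio 0.597, 0.502 to 0.706, adjusted exact p = 9.00e-10), beside 75.9% of the downstream windows. The median GC content was 47% at the sites, 50.5% at those with MBD3, 62% at the promoter sites and 44% downstream. MBD3, in contrast to MBD2, has little preference for methylated CpG, and no methylation values were used here.

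Against the kept sites, 9 strings besides AP-1 differed. The CTCF core was at 0.888% of the sites and at 7.41% of the kept sites (odds ratio 0.112, 0.0860 to 0.145, adjusted exact p = 8.19e-55). The string of SP and KLF factors followed (2.54% against 7.83%, odds ratio 0.307, adjusted exact p = 5.55e-24). CAGCTG was more frequent at the sites (17.4% against 11.8%, odds ratio 1.57, adjusted exact p = 5.53e-09). TEAD (5.90% against 3.50%) and SOX (4.34% against 2.31%) passed the test at odds ratios of 1.73 and 1.91, each with an adjusted exact p of 5.44e-05, but so did the control TCACTGA (6.17% against 3.74%, odds ratio 1.69), which was at 7.54% of the sites with TGACTCA and at 4.79% of those without. TCACTGA begins with the last letters of TGACTCA and ends with its first, so the strings can overlap and this control is not independent of AP-1. The control GTACTAC did not pass (odds ratio 0.867, adjusted exact p = 0.630). SOX lost its call without ESC replicate 2 (odds ratio 1.25, adjusted exact p = 0.377), and TEAD lost its call without repeat-rich windows (odds ratio 1.35, adjusted exact p = 0.0703).

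RUNX gave opposite answers against the kept sites. Over all windows it was at 10.7% of the sites and 17.1% of the kept sites (odds ratio 0.578, 0.503 to 0.666, adjusted exact p = 2.37e-13). Without repeat-rich windows it was at 8.86% and 3.54% (odds ratio 2.65, 1.90 to 3.79, adjusted exact p = 1.29e-10). The share at the kept sites therefore came mostly from windows of repeated sequence. The ETS string CAGGAAGT (odds ratio 1.41, adjusted exact p = 0.0377) and the NFY string CCAATCA (1.91, adjusted exact p = 0.0215) also passed, and both lost their calls without repeat-rich windows (adjusted exact p = 0.711 and 0.288) and without ESC replicate 2 (0.345 and 0.188).

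**Figure D4:**
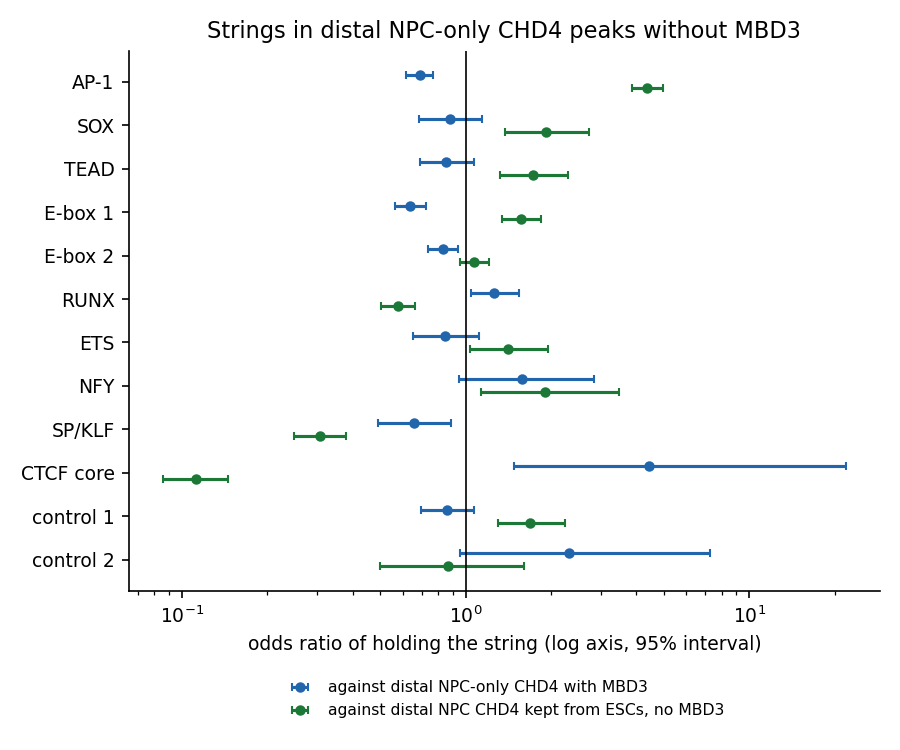
Odds ratio, on a log axis, of holding each string in the central 200 bp for distal NPC-only CHD4 peaks without MBD3 against those with MBD3 (blue) and against distal NPC CHD4 peaks kept from ESCs (green), with 95% exact intervals as bars. E-box 1 is CAGCTG, E-box 2 is CAGATG, ETS is CAGGAAGT, control 1 is TCACTGA and control 2 is GTACTAC. AP-1 lies at 0.691 and 4.38, and the CTCF core at 4.44 and 0.112.

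SIN3A, the scaffold of another histone deacetylase complex, and ZFP296, a zinc finger protein of ESCs, were mapped in ESCs and not in NPCs. A SIN3A peak of either ESC list overlapped 117 of 13867 sites (0.844%, interval 0.698% to 1.01%) and 300 of 1688 kept sites (17.8%), an odds ratio of 0.0394 (0.0313 to 0.0493, adjusted exact p = 1.41e-198). ZFP296 overlapped 25 sites (0.180%) and 100 kept sites (5.92%), an odds ratio of 0.0287 (0.0177 to 0.0450, adjusted exact p = 1.31e-72). Kept sites have an ESC peak of CHD4 by definition and the sites have none, so occupancy in ESCs and these overlaps cannot be told apart. Without ESC replicate 2 the odds ratios were 0.0662 for SIN3A and 0.0436 for ZFP296. Sites with MBD3, which also lack ESC peaks, overlapped SIN3A at 1.41% and ZFP296 at 0.134%.

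Positions in the genome were close to those of the sites with MBD3. By midpoint, 54.3% of the sites were intergenic, 43.7% intronic and 2.04% exonic. The intronic share was 43.7% in sites with MBD3 too, with an odds ratio of 1.00 (0.897 to 1.12, adjusted exact p = 1). The median distance to a TSS was 35024 bp, against 32917.5 bp for the sites with MBD3 and 13471.5 bp for the kept sites, and 22.8% of the sites lay beyond 100 kb. Per megabase, chromosome 19 held 8.07 sites and chromosome 3 7.45, whereas chromosome 14 held 2.62 and X 0.720.

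Another site lay within 10 kb of 41.0% of the sites and within 100 kb of 85.5%, and the median gap to the next was 16618 bp. The sites overlap no NPC MBD3 peak by the rule, and 2.57% of them had one within 1 kb, 9.92% within 10 kb and 36.6% within 100 kb, with a median gap of 190887 bp. An ESC CHD4 peak of either replicate lay within 10 kb of 25.2% of the sites. The lists differ in size, so the gaps cannot be compared between them, and the share that the density of the sites alone would give was not computed.

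The sites were then counted about genes, in the gene body and 100 kb on either side. Of 22225 protein-coding genes 57.7% had at least 1 site there and 13.9% had 1 inside the gene body. The median gene had 1 site, and 6.90% had more than 5. Long genes have wider windows, so lists are also given as sites per megabase of window, which was 6.88 over all genes. Windows of neighbouring or nested genes overlap, so 1 site can count for several genes, also across lists. Examples are Fgf1 inside Arhgap26, Tead3 beside Rpl10a, and Lefty1 beside Lefty2.

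The highest single counts belonged to Gm20388 with 62 sites and Fgfr2, a receptor of the FGF family, with 27, but these gene models are 4435 kb and 3009 kb long in the annotation used. Lpp, a LIM protein of focal adhesions, had 25 sites over 599 kb, and Sh3pxd2a, an adaptor of podosomes, had 24 over 204 kb. Lekr1 and Tmem189 had 22 each. Arhgap26, Col4a1, a chain of basement membrane collagen, and Rbms3, an RNA-binding protein, had 21 each, and Smad3, the signal transducer of TGF-β and activin, had 20. At Lpp 9 of the 25 sites held TGACTCA, at Sh3pxd2a 8 of 24 and at Smad3 11 of 20. Several of these 10 genes act at focal adhesions, the matrix or the cytoskeleton, a grouping made after the counts were seen and not tested.

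Genes of focal adhesions and the matrix had the highest median and the most sites per megabase of the 13 lists counted. Of 48 genes 45 had a site (93.8%), the median was 4.5 sites a gene, 28 (58.3%) had 1 in the gene body, and 20 (41.7%) had more than 5. Over all genes 13.9% had a site in the body and 6.90% had more than 5. The genes of the list are long, with a median of 68.4 kb against 15.5 kb for all genes, which raises both counts. Per megabase of window the list held 18.2 sites. Col4a1 (chr8:11198423-11312826) had 21 and its divergent neighbour Col4a2 (chr8:11312805-11449287), the other chain of the same collagen, had 18, and the windows of both genes overlap, so sites between them count for each. Parva, which links integrins to actin, had 16 over 164 kb, with 7 of them holding the AP-1 string.

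The AP-1 genes themselves were near the top. Of 19 genes of the FOS, JUN, ATF, BATF and MAF families 18 had a site (94.7%), with a median of 3 and 15.7 sites per megabase. Fosl2 (chr5:32438845-32460204) had 11 sites about it, 6 with the string, and none in its body, and Jun (chr4:94715725-94718913) had 10, 7 of them with the string. Atf7, Batf2, Fosl1 and Jund had 4 each.

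Signalling lists lay between. In the FGF, EGF and ERK list 36 of 42 genes had a site (85.7%, 10.3 per megabase), with Fgfr2 at 27, Fgf1, a ligand, at 10 and Frs2, the adaptor of FGF receptors, at 9. In the TGF-β and BMP list 28 of 36 had one (77.8%, 13.5 per megabase): Smad3 had 20, Tgfbr3, a co-receptor, 12, and Acvr1, a type I receptor, 8. The Notch list had 21 of 24 genes (87.5%, 12.0 per megabase), led by the coactivator gene Maml3 with 16 sites over 417 kb, the receptor gene Notch2 with 12, and Mfng, a glycosyltransferase that modifies Notch, with 6. The Hippo list had 19 of 24 (79.2%, 12.6 per megabase), led by Wwtr1, which encodes TAZ, with 20 sites, Tead1 with 12 and Tead3 with 6. In each of these 4 lists the share with a site was above the 57.7% of all genes.

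Genes named for the neural lineage gave lower shares and densities than the 4 signalling lists. Among neural progenitor markers 16 of 24 had a site (66.7%, 9.26 per megabase), and 4 (16.7%) had more than 5. These values were above those of all genes (57.7%, 6.88 per megabase and 6.90%). The share and density were close to those of cytosolic ribosomal protein genes (69.4% and 9.14 per megabase), of which 8.06% had more than 5. In the signalling lists the share with more than 5 ran from 12.5% (Notch) to 25% (TGF-β and BMP). Msi2, an RNA-binding protein of stem cells, had 10, all in the gene body, Cd44, a receptor of hyaluronan, 9, and Id1, an inhibitor of basic helix-loop-helix factors, 8. Neuronal genes had 17 of 24 (70.8%) but 5.07 sites per megabase, below all genes, with Elavl3 and Gad2 at 5 and Neurod1 at 4. Glial genes had 7 of 15 (46.7%), with Gfap, the astrocyte filament, at 5, Cspg4 at 4 and Aldh1l1 at 3.

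Pluripotency regulators had a site in 12 of 24 (50%, 5.15 per megabase), led by Lefty1 with 4 and by Dppa3, Lefty2 and Nodal with 3 each. The rule leaves out NPC CHD4 peaks that overlap an ESC CHD4 or MBD3 peak, which can lower counts near genes bound in ESCs. How far it did so in any list was not tested. Regulators of mesoderm and endoderm had the lowest share and density of the 13 lists, 9 of 23 genes (39.1%) and 3.59 per megabase, with Gata4, Hand2 and Hnf4a at 3. In this list 0 genes had a site in the body, against 13.9% of all genes. These genes are short, with a median length of 5.49 kb against 15.5 kb for all genes, so the body counts are not comparable. NuRD subunits had 12 of 15 (80%, 12.6 per megabase), with Chd3 at 8, Mta2 at 7 and Mbd2 and Rbbp4 at 5. Cytosolic ribosomal protein genes, taken as short and constantly active genes, had 43 of 62 (69.4%, 9.14 per megabase) and likewise 0 with a site in the body, with Rpl19 at 7 and Rpl10a at 6. Their share and density were above those of all genes as well. A share above 57.7% therefore does not set a signalling list or the neural progenitor markers apart.

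**Figure D5:**
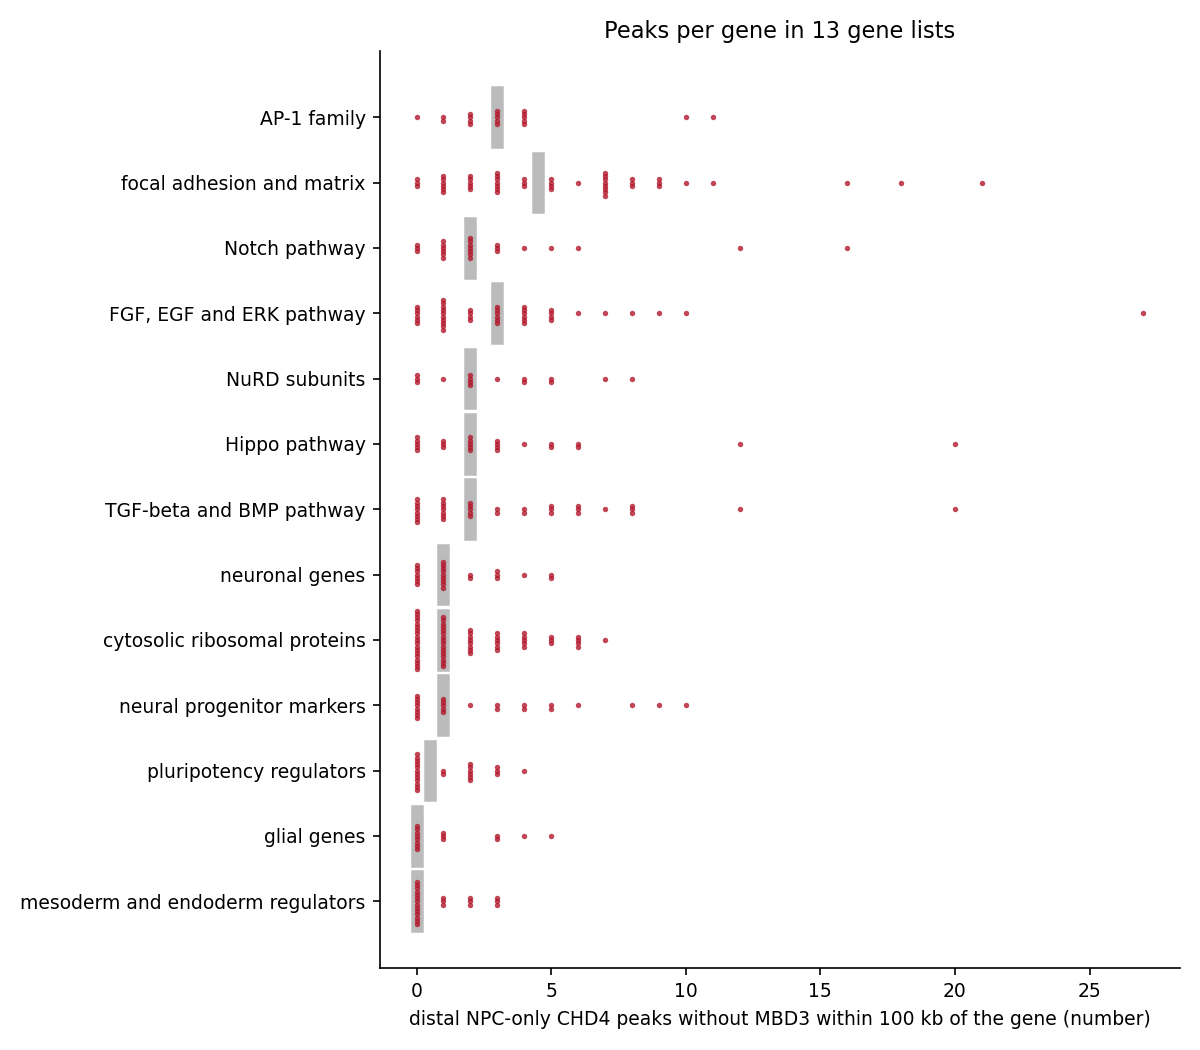
Number of distal NPC-only CHD4 peaks without MBD3 within 100 kb of each gene (x axis) in 13 gene lists (y axis, ordered by the share of genes with at least 1 peak). Each point is 1 gene and grey bars are medians, which run from 4.5 for focal adhesion and matrix genes to 0 for glial genes and for regulators of mesoderm and endoderm.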

How the data were processed

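The members and lists described here were chosen with earlier results of these data known. Per the study's methods, the authors mapped reads to mm9 with BWA, kept uniquely mapped reads, removed duplicates and called peaks in each sample relative to its cell line's input. The submitters' processing notes name MACS2 2.0 and SAMtools. The deposited lists give each peak a −log10 value by the authors, and its basis (p or q) is not given in the sources used here. Names of peaks in 7 of the 9 lists mention that reads were normalized to a common number, and reads per peak are unknown. In ESC CHD4 replicate 2 all 29974 peak names mention Zfp219 BAC cells, against its wild-type label.

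TSSs were 45974 start positions of protein-coding transcripts in GENCODE vM1, and sequence came from NCBIM37. Both strands of the central 200 bp were read for each string. Shares carry 95% Clopper-Pearson intervals. Classes were compared by two-sided Fisher's exact tests with conditional odds ratios. Benjamini-Hochberg adjustment ran within the comparison with the sites with MBD3 (19 tests) and that with the kept sites (18 tests), and calls were made at an adjusted p of 0.05. The windows 10 kb downstream overlapped an NPC CHD4 peak in 173 cases (1.25%). Named sites were the 10 highest by value, and named genes the 10 with the most sites and the top 3 of each list, with some at equal or next counts added. List genes that the annotation does not hold under that name were left out. Alternatives changed the overlap, the authors' value, the TSS definition, the window and the ESC replicates. The tools were Python 3.11.15 with numpy 2.4.6, scipy 1.17.1 and matplotlib 3.10.9, and samtools 1.23.1.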

Additional observations from a re-analysis of the deposited data

How the results depend on the processing

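Of 354 recomputed values, 291 kept their direction and call or stayed close to the reported value, and the cause of the other changes was not tested. The number of sites was 5312 at an authors' value of at least 10. The AP-1 share was 51.2% with no listed peak within 1 kb, 56.3% at a value of at least 10, 48.2% to 50.1% with 1 pair of ESC replicate lists left out, 34.3% in windows of 100 bp (1.71% in the windows 10 kb away) and 59.5% in windows of 500 bp (8.76%). Against the sites with MBD3, the AP-1 odds ratio lost its call with no listed peak within 1 kb (0.904) and in the value steps 3 to 6 (0.901), 6 to 8 (0.858) and 8 to 10 (0.852), and it turned between 15 and 20 (1.07). The CpG odds ratio lost its call between 3 and 6 (0.405) and between 15 and 20 (0.666), and the repeat odds ratio between 3 and 6 (2.55), where 52 sites with MBD3 remained. The intron odds ratio, at 1.00 with an adjusted p of 1, fell just below 1 with 0.5 of the shorter peak required to overlap (0.991), at a value of at least 10 (0.990), with a TSS limit of 5 kb (0.999), without chromosomes 3, 6, 8, 14 and 19 (0.989), with 1 TSS a gene (0.992) and without repeat-rich windows (0.985). Of the other strings, 2 differed from the sites with MBD3 in windows of 100 bp and 3 without repeat-rich windows, in place of 5. RUNX turned against the kept sites without repeat-rich windows (2.65).

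The share of genes with a site was 55.4% with no listed peak within 1 kb, 36.3% at a value of at least 10, 51.1% with a TSS limit of 5 kb, 56.8% with the TSSs of all annotated genes, 56.8% without the 5 chromosomes, 58.7% with 1 TSS a gene, 43.0% within 50 kb, 13.9% in the gene body, and 58.0% to 60.1% with ESC replicates left out. The settings on repeat-rich windows, value steps, single SIN3A lists and 1 TSS a gene were chosen after seeing the data. No paired analysis was possible because the tests compare classes of peaks and not replicate samples. Soft-masked bases, planned for the repeat comparison, were not run, since the reference has none.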

Other observations

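Sites on the sex chromosomes were few. X held 120 of the sites, or 0.866%, at 0.129 sites per protein-coding gene, and Y held 0, and the whole NPC CHD4 list had 143 peaks on X. On the autosomes the number per gene ran from 0.344 on chromosome 14 to 1.12 on chromosome 3. Of the 120 sites on X, 68 held the AP-1 string, while 0 of the sites with MBD3 lay on X. The sex and karyotype of the line, and the input coverage of X, were not examined.

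Other strings were split by the presence of TGACTCA in the same window, as a description. The CTCF core was at 0.359% of the sites with TGACTCA and at 1.42% of those without, RUNX at 8.75% and 12.6%, and TEAD at 4.95% and 6.84%. CAGCTG was at 16.8% and 18.01%. The control TCACTGA went the other way, at 7.54% and 4.79%.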
